A study of Bos taurus with 6 samples.

Results

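Mitochondrial ribosomal proteins were examined in bovine embryonic stem cells grown on 2 kinds of feeder layer. All genes whose symbol is MRPL or MRPS followed by a number, with or without a letter, were taken, which gave 77 of the 19163 genes in the table of read counts. The same 77 genes were found in the table of TPM values. Within the tables the genes were picked by name, with no measured value in the rule. One more symbol of this kind in the bovine RefSeq annotation, MRPL14, was not analysed here.

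The mitochondrial ribosome translates the few mRNAs that are transcribed from mitochondrial DNA, all of which encode subunits of the respiratory chain and ATP synthase. Its RNAs come from the mitochondrial genome, whereas every one of its proteins is encoded in the nucleus, made in the cytosol and imported. Some of these proteins have counterparts in bacterial ribosomes and sit close to the catalytic and decoding centers, and others exist only in mitochondria. The MRPL proteins build the large subunit, which joins amino acids, and the MRPS proteins build the small subunit, which reads the mRNA. By present knowledge of the structure, MRPS18A and MRPS30 sit in the large subunit despite their names, and MRPS36 works in a metabolic enzyme complex outside the ribosome. They were counted accordingly.

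The cells were F7, 1 line of pluripotent stem cells derived from an in vitro fertilized Holstein Friesian embryo, and RNA was sequenced at 15 passages. In MC-F7 (written 1M-F7 in the labels) the cells had been cultured on mouse embryonic fibroblasts (MEFs) treated with mitomycin C, which stay alive but do not divide. In MT-F7 the MEFs had been fixed with methanol and were dead. Both groups had 3 libraries, and both received the same culture medium, which was renewed daily for MC-F7 and every other day for MT-F7, so that feeder and renewal cannot be told apart. Before RNA extraction the dissociated cells of both groups were placed on gelatin and the floating cells were taken. The authors reported a lower share of reads aligned to the bovine genome in MC-F7 than in MT-F7. They proposed that fixed feeders reduced contamination by feeder cells. The part of mouse feeder RNA in the levels below was not tested. No label says that the replicates were separate cultures, and the p-values then measure only the spread between these libraries. In bulk RNA, fewer cells of a type and less RNA per cell cannot be told apart.

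The libraries held 21958386 to 24933430 counted reads. The 77 genes together took 0.602%, 0.534% and 0.472% of the reads in MC-F7 replicates 1, 2 and 3, and 0.461%, 0.506% and 0.414% in MT-F7. Genes of the mitochondrial genome took 16.3%, 19.8% and 28.3% of the reads in MC-F7. In MT-F7 they took 23.2%, 18.0% and 27.9%, and both replicates 3 were high. Markers of pluripotent cells were present in both groups, and 4 of 6 analysed (POU5F1, NANOG, DNMT3B and LIN28A) were lower in MT-F7, with a summed level of 1358 to 2030 reads per 1000000 (CPM) in MC-F7 and 752 to 880 CPM in MT-F7. The other 2 had log2 fold changes above 0 (up to 0.33) and did not pass the test. Of 10 fibroblast markers 3 were higher and 1 was lower in MT-F7, none was at 0, and their sum was 221 to 298 CPM in MC-F7 and 338 to 392 CPM in MT-F7. Of 5 tested neural markers 2 were higher (summed level 624 to 688 CPM against 775 to 814 CPM). Of 3 tested trophectoderm markers 2 were lower (52.2 to 78.6 CPM against 7.30 to 8.68 CPM, CDX2 at 0 in all libraries). Of 3 tested mesoderm and endoderm markers 2 were lower and 1 was higher (14.8 to 14.9 CPM against 11.1 to 12.4 CPM, GATA4 at 0 in all libraries). Each sum took all markers of its list that were found among the counts, also those not tested (6 neural, 6 trophectoderm, and 8 mesoderm and endoderm). The part of these marker differences in the results that follow was not tested.

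Levels of different genes were first compared per length, on the scale of the deposited TPM. These values are not scaled for the depth of each library, so here they set genes in order. Where the groups are compared on them further on, differences in depth are part of the result. The 76 tested genes spanned a wide range around a median of 9.00 TPM. MRPL40, a mitochondria-specific protein of the large subunit, had the highest level, with 105, 83.2 and 89.5 TPM in MC-F7 and 73.4, 89.6 and 84.9 TPM in MT-F7 (92.4 ± 11.0 and 82.7 ± 8.34, SD, n = 3). It was followed by MRPL41 (62.3 ± 11.7 TPM in MC-F7 and 43.0 ± 0.999 in MT-F7), MRPS26 (42.1 ± 5.76 and 42.9 ± 7.96), MRPS25 (37.5 ± 4.61 and 36.4 ± 4.74) and MRPL52 (26.1 ± 2.23 and 32.3 ± 3.43), all of them mitochondria-specific proteins. In this order MRPL40 was above MRPL41 in 6 of 6 libraries and MRPL41 was above MRPS26 in 5 of 6, but each neighbour in the order overlapped the next over the 6 libraries.

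**Figure D1:**
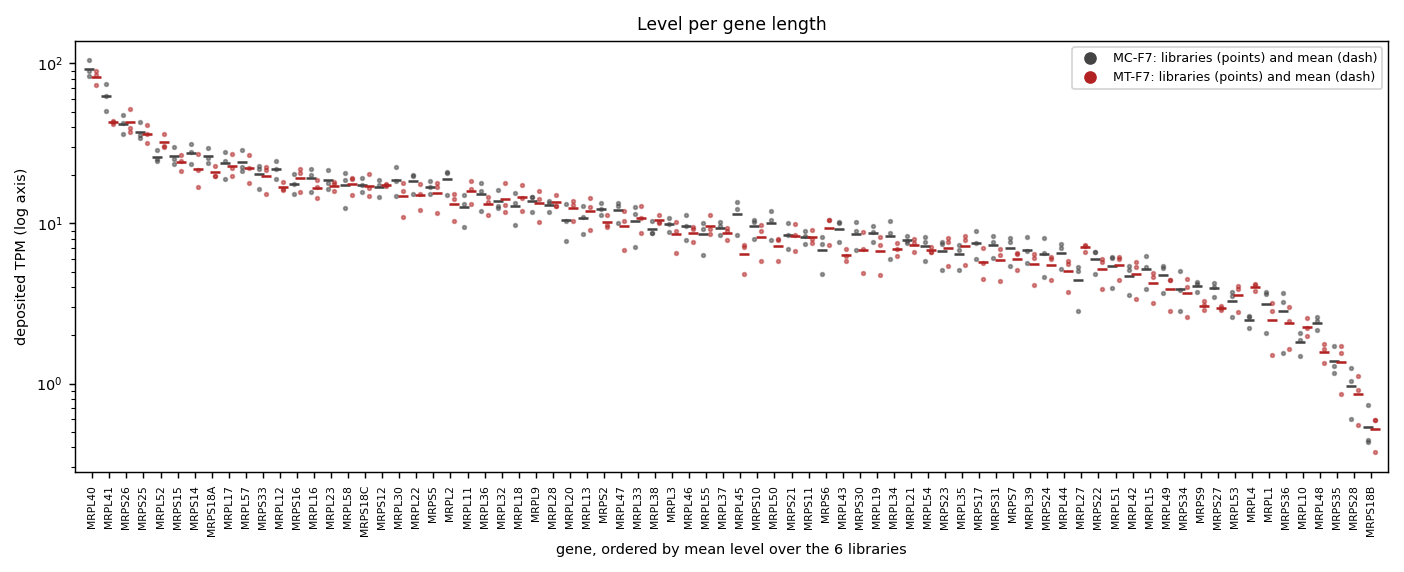
Level per length of each tested mitochondrial ribosomal protein gene in deposited TPM (log scale), in order of the mean over the 6 libraries, with 1 point for each library, a dash for the group mean and the groups in different colours. MRPL40 (mean of 87.5 TPM) is at one end and MRPS18B (0.527 TPM) near the other, and the points of MC-F7 and MT-F7 overlap for most genes.

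MRPL48, MRPS35, MRPS28 and MRPS18B had the lowest levels of the tested genes. MRPL48 had a mean of 1.99 TPM over the 6 libraries, MRPS35 had 1.38, MRPS28 had 0.912 and MRPS18B had 0.527. MRPS35 was above MRPS28, and MRPS28 above MRPS18B, in 6 of 6 libraries. MRPL40 was 166 times as high as MRPS18B. These values depend on the gene models used for counting as well as on the reads. The log2 TPM values had an SD of 1.07 among genes of the large subunit and 1.54 among those of the small subunit. The SD was 1.07 for the cytosolic ribosomal proteins, whose median was 369 TPM, and 1.26 for the nuclear-encoded subunits of the respiratory chain, whose median was 27.2 TPM. MRPL24 had no reads in MC-F7 and 0, 0 and 3 reads in MT-F7. It could not be tested, and 3 reads, the floor used for a count of 0, corresponded to 0.120 to 0.137 CPM in these libraries.

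The MT-F7 cells were then compared with the MC-F7 cells gene by gene, to ask which mitochondrial ribosomal protein genes differed between cells on fixed and on living feeders. Levels are given in CPM after TMM scaling, and fold changes are MT-F7 over MC-F7 on the log2 scale, so that negative values are lower in MT-F7. The test called 11 of the 76 tested genes, 10 of them lower on fixed feeders and 1 higher, with 0.05 as the threshold of the adjusted p. Genes of the large subunit, such as MRPL45 and MRPL48, made up most of those that were lower, and MRPL4, also of the large subunit, was the one that was higher. The 11 genes were 14.5% of those tested, whereas 23.2% of all 13001 tested genes passed, 11.3% in the lower and 11.9% in the higher direction. The 10 lower genes were 13.2% of the 76, so the share of lower calls was near its background and the share of all calls was below it.

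The fold changes of the 76 genes were small and leaned one way. Their median was −0.26, with quartiles of −0.44 and −0.094 and a range from −0.96 to 0.57, whereas the median of all tested genes was −0.0026 with quartiles of −0.33 and 0.35. A fold change below 0 was found for 64 of the 76 genes (84.2%), compared to 50.2% of all tested genes. The 2 groups did not overlap for 29 of 76 genes (38.2%), with 40.0% of all genes as background. Of these 29 genes, 27 were lower in MT-F7, which is 35.5% of the 76, with 20.1% of all genes as background. At an unadjusted p under 0.05, 27 of 76 genes passed, with 35.8% of all genes as background. The standard errors of the fold changes were 0.143 to 0.317, and 0.47 was the smallest absolute change that passed. For 28 genes the absolute change was under 0.2. With the deposited TPM taken as they were, limma called 3 of the 76 genes lower and 2 higher, and 843 of all genes lower and 1643 higher. On this scale, which keeps the depth of each library, the median of all genes was 0.057.

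**Figure D2:**
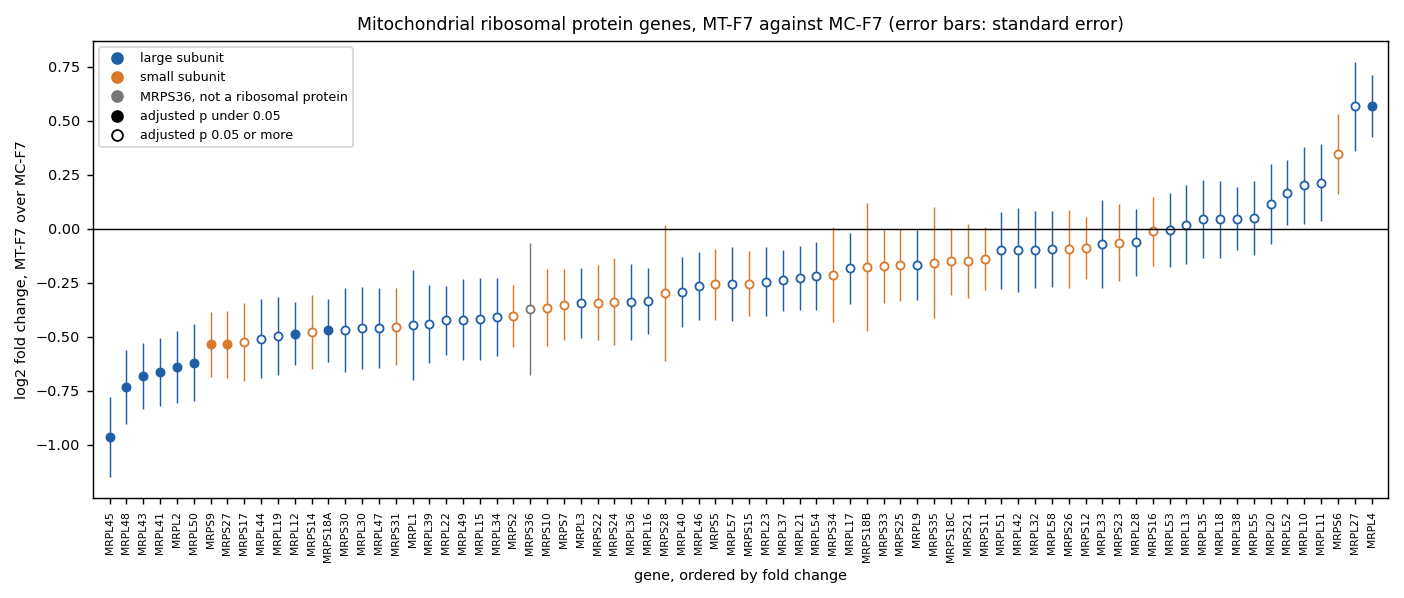
Log2 fold change (MT-F7 over MC-F7) of each tested mitochondrial ribosomal protein gene with its standard error as a bar, ordered by fold change, coloured by subunit and filled where the adjusted p was under 0.05. Of the 76 genes 64 lie below 0, and MRPL45 (−0.96) and MRPL4 (0.57) are the ends of the range.

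In the large subunit, 8 of 49 tested genes were lower (16.3%) and 1 was higher, with a median of −0.26 and 38 genes below 0. Of all tested genes, 11.3% were lower, 11.9% were higher and 50.2% had a fold change below 0. In the small subunit, 2 of 26 genes were lower (7.69%) and none was higher, with a median of −0.23 and 25 genes below 0. The number higher was 0 also at an unadjusted p under 0.05 and with DESeq2 and limma. It was 1 with replicate numbers as a block or without replicate 3 of both groups. Among the 28 tested large-subunit proteins with a bacterial counterpart, 2 were lower (7.14%) and 1 was higher (median −0.21). Among the 21 found only in mitochondria 6 were lower (28.6%, median −0.29). In the small subunit the count was 1 of 16 for proteins with a bacterial counterpart (6.25%, median −0.28) and 1 of 10 for mitochondria-specific proteins (10%, median −0.18). Without MC-F7 replicate 1 the median was −0.18 for the large subunit (33 of 49 genes below 0) and −0.099 for the small subunit (19 of 26). No difference between these classes was tested. The counts by subunit cover only genes with MRPL and MRPS symbols. DAP3 and PTCD3, small-subunit proteins with other names, were also lower (−0.72 and −0.59, below).

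The strongest change was that of MRPL45 (Entrez gene 511479), a mitochondria-specific protein near the exit of the ribosomal tunnel that helps to anchor the ribosome to the inner membrane. Its level was 86.5, 89.0 and 62.3 CPM in MC-F7 and 44.7, 44.8 and 32.3 CPM in MT-F7. All MT-F7 libraries were below all MC-F7 libraries, and replicate 3 was the lowest in both groups. The mean fell from 79.3 ± 14.7 to 40.6 ± 7.22 CPM (SD, n = 3), a fold change of −0.96 (SE 0.187, adjusted p = 0.0026).

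MRPL48, MRPL43 and MRPL41 are further mitochondria-specific proteins of the large subunit, and MRPL41 was the member with the second highest level per length. MRPL48 (Entrez gene 615873) had 16.5, 14.7 and 14.7 CPM in MC-F7 and 9.40, 9.93 and 8.24 CPM in MT-F7, with a fold change of −0.73 (SE 0.172, adjusted p = 0.0080). MRPL43 (Entrez gene 282277) had 47.5, 44.2 and 37.7 CPM in MC-F7 and 26.5, 28.2 and 26.0 CPM in MT-F7, with a fold change of −0.68 (SE 0.153, adjusted p = 0.0064). In both genes the MT-F7 libraries were close together and below the lowest MC-F7 library. MRPL41 (Entrez gene 506521) had 231, 182 and 167 CPM in MC-F7 and 122, 119 and 125 CPM in MT-F7, with a fold change of −0.66 (SE 0.158, adjusted p = 0.0087). The MC-F7 libraries of MRPL41 were spread widely (194 ± 33.4 CPM) and those of MT-F7 hardly at all (122 ± 3.08 CPM). These 3 genes and MRPL45 passed the test with any 1 of the 6 libraries left out.

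MRPL2 is the conserved protein next to the peptidyl transferase center, where peptide bonds are formed. MRPL2 (Entrez gene 514403) had 107, 98.2 and 81.3 CPM in MC-F7 and 65.6, 67.7 and 50.6 CPM in MT-F7, with a fold change of −0.64 (SE 0.168, adjusted p = 0.015). The groups did not overlap, but the call was lost without MC-F7 replicate 1 (adjusted p = 0.053) and without MC-F7 replicate 2 (adjusted p = 0.068). MRPL50, a mitochondria-specific protein (Entrez gene 514753), had 47.2, 38.8 and 33.0 CPM in MC-F7 and 28.4, 27.0 and 21.95 CPM in MT-F7, with a fold change of −0.62 (SE 0.177, adjusted p = 0.023). Its call was lost without MC-F7 replicate 1 (adjusted p = 0.088), MC-F7 replicate 2 (0.073) or MT-F7 replicate 2 (0.055).

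MRPL12 forms the flexible stalk of the large subunit that recruits translation factors, and it has also been described as a partner of the mitochondrial RNA polymerase. MRPL12 (Entrez gene 399560) had 143, 118 and 115 CPM in MC-F7 and 86.1, 92.0 and 90.4 CPM in MT-F7, with a fold change of −0.49 (SE 0.147, adjusted p = 0.030). MRPS18A (Entrez gene 614102), one of 3 paralogs named MRPS18, had 125, 101 and 107 CPM in MC-F7 and 75.2, 84.7 and 80.6 CPM in MT-F7, with a fold change of −0.47 (SE 0.147, adjusted p = 0.035). Both genes were lower in all MT-F7 libraries than in any MC-F7 library. These were the smallest changes that passed, and both calls were lost without replicate 1 or 2 of either group (adjusted p of 0.083 to 0.11 for MRPL12 and 0.077 to 0.13 for MRPS18A).

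The paralogs of MRPS18A belong to the small subunit and did not pass the test. MRPS18C had 47.4 ± 4.72 CPM in MC-F7 and 42.7 ± 5.12 CPM in MT-F7 (fold change −0.15, SE 0.156, adjusted p = 0.53). MRPS18B had 3.68 ± 1.20 and 3.25 ± 0.687 CPM (fold change −0.18, SE 0.296, adjusted p = 0.71). In the order of level per length, MRPS18A was at rank 8, MRPS18C at rank 17 and MRPS18B at rank 76 of 77. MRPS30, the other protein of the large subunit with a small-subunit name, had 74.3, 61.0 and 52.6 CPM in MC-F7 and 45.3, 56.0 and 34.5 CPM in MT-F7. Its groups overlapped, since MT-F7 replicate 2 was above MC-F7 replicate 3, and its fold change of −0.47 (SE 0.195) had an adjusted p of 0.10.

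MRPS9 and MRPS27 were the small-subunit genes with an MRPS symbol that fell. MRPS9, a conserved protein of the head of the subunit (Entrez gene 519302), had 41.4, 37.6 and 37.8 CPM in MC-F7 and 28.2, 24.02 and 28.3 CPM in MT-F7, with a fold change of −0.54 (SE 0.151, adjusted p = 0.021). MRPS27, a mitochondria-specific protein with RNA-binding pentatricopeptide repeats (Entrez gene 514740), had 53.6, 57.5 and 69.3 CPM in MC-F7 and 42.3, 38.5 and 43.6 CPM in MT-F7, with a fold change of −0.54 (SE 0.154, adjusted p = 0.024). MRPS27 was highest in MC-F7 replicate 3, the library with the lowest value of its group for 58 of the 76 genes. Neither call held without MC-F7 replicate 2, MT-F7 replicate 1 or MT-F7 replicate 2, and each was lost also without 1 further MC-F7 library (replicate 1 for MRPS9, replicate 3 for MRPS27), with adjusted p of 0.056 to 0.11. MRPS12, the conserved protein of the decoding center, had 68.1, 59.6 and 56.3 CPM in MC-F7 and 57.6, 55.6 and 59.7 CPM in MT-F7 (fold change −0.089, SE 0.145, adjusted p = 0.70). Its libraries overlapped almost completely. MRPS36, which is not a ribosomal protein, had a fold change of −0.37 (SE 0.306, adjusted p = 0.42).

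MRPL4 went the other way. MRPL4 is a conserved protein that lines the tunnel through which the new peptide leaves the ribosome. It had 52.2, 49.4 and 47.1 CPM in MC-F7 and 68.4, 72.0 and 80.3 CPM in MT-F7 (Entrez gene 507154). All MT-F7 libraries were above all MC-F7 libraries, and the mean rose from 49.6 ± 2.58 to 73.6 ± 6.10 CPM, 1.48 times (fold change 0.57, SE 0.144, adjusted p = 0.012). The call was lost without MC-F7 replicate 2 (adjusted p = 0.069) and held with each other library left out. MRPL27, a conserved protein close to the peptidyl transferase center, also had no overlap, with 16.2, 16.3 and 9.68 CPM in MC-F7 and 19.3, 20.3 and 22.8 CPM in MT-F7. Its fold change of 0.57 was as large but had a wider error (SE 0.207, adjusted p = 0.065).

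**Figure D3:**
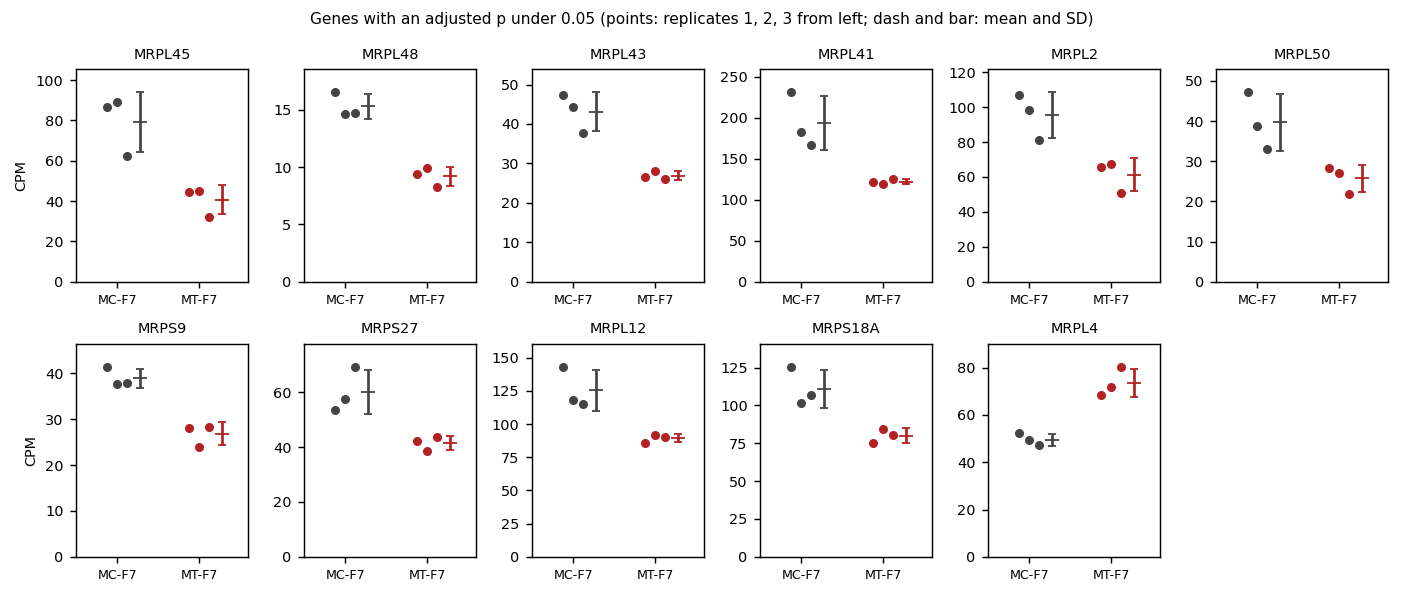
Level in CPM of the 11 mitochondrial ribosomal protein genes with an adjusted p under 0.05, with 1 point for each library (replicates 1, 2 and 3 from left), the mean as a dash and the SD as a bar. In each panel the MC-F7 and MT-F7 points do not overlap, and MRPL4 is the panel in which MT-F7 is above MC-F7 (73.6 against 49.6 CPM).

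MRPL27 was one of 18 genes whose groups did not overlap but whose adjusted p missed the threshold. MRPS17, a conserved protein of the small subunit, had 60.1, 47.3 and 42.4 CPM in MC-F7 and 34.3, 40.9 and 28.9 CPM in MT-F7 (fold change −0.53, SE 0.182, adjusted p = 0.054). MRPL44, a mitochondria-specific protein related to ribonucleases, had a fold change of −0.51 (adjusted p = 0.061), and MRPL19, a conserved protein of the large subunit, one of −0.50 (adjusted p = 0.064). In all, 11 genes had an adjusted p between 0.05 and 0.1, and 10 of them had a fold change below 0. Both ends of the order by level per length held 1 gene that fell, MRPL41 at the high end (−0.66) and MRPL48 at the low end (−0.73). The others at the high end did not pass, with −0.29 for MRPL40 (adjusted p = 0.22), −0.093 for MRPS26, −0.17 for MRPS25 and 0.17 for MRPL52. At the low end MRPS28 (−0.30), MRPS35 (−0.16) and MRPS18B (−0.18) did not pass either.

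The genes moved together from library to library within a group as well. Each gene's level was set relative to its mean over the 6 libraries, and the median of these relative levels over the 76 genes was 0.32, 0.093 and −0.047 (log2) in MC-F7 replicates 1, 2 and 3 and −0.097, −0.042 and −0.31 in MT-F7. MC-F7 replicate 1 was therefore the highest library and MT-F7 replicate 3 the lowest, while MC-F7 replicate 3 and MT-F7 replicate 2 were almost level. MC-F7 replicate 1 held the highest of the 6 values for 62 of 76 genes, compared to 21.3% of all tested genes. MT-F7 replicate 3 held the lowest value for 48 of 76 genes, compared to 22.1% of all tested genes. Replicate 3 was the lowest of its own group for 58 of 76 genes in MC-F7 and 55 of 76 in MT-F7 (40.6% and 40.5% of all tested genes). MC-F7 replicate 1 had the smallest share of reads from the mitochondrial genome (16.3%) and the replicates 3 the largest in their groups, and the part of this in the levels was not tested.

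**Figure D4:**
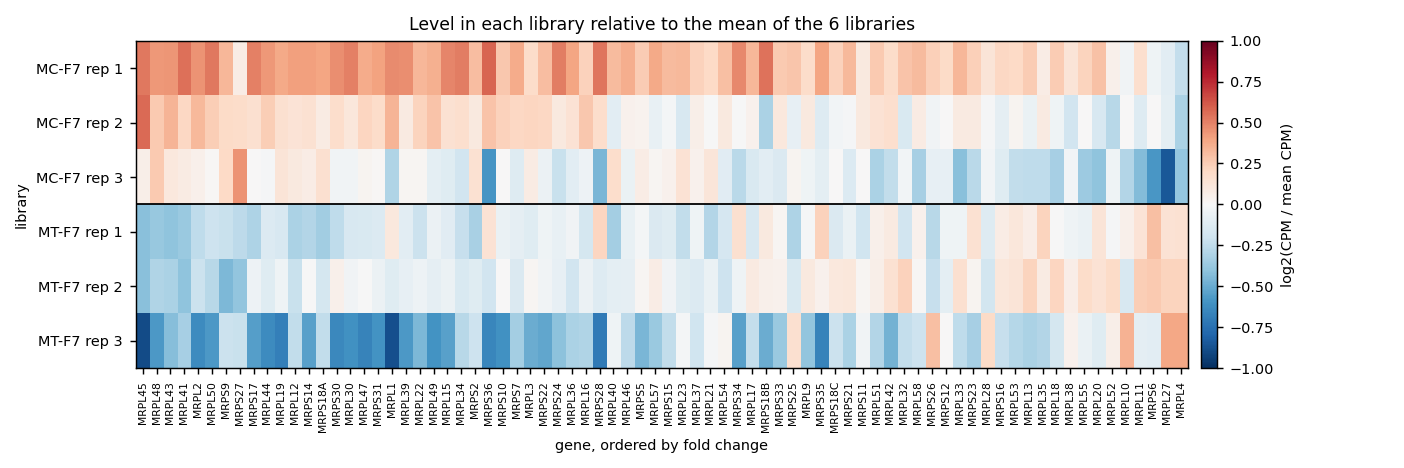
Relative level (log2, against the mean of each gene over the 6 libraries) of the tested mitochondrial ribosomal protein genes in each library. MC-F7 replicate 1 is high for most genes (median 0.32) and MT-F7 replicate 3 is low (median −0.31), with the other 4 libraries in between.

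The results that rest on these libraries changed when the libraries were left out. Without MC-F7 replicate 1 the median fold change of the 76 genes was −0.13, 53 genes were below 0, and 6 genes passed the test, all of them among the 11, where 20.2% of all genes passed. Without MT-F7 replicate 3 the median was −0.21, 57 genes were below 0, and 11 genes passed, again the 11, where 23.3% of all genes passed. Without MC-F7 replicate 3, 21 genes passed (23.4% of all genes). Without replicate 3 of both groups, a comparison chosen after the data had been seen, the median was −0.27 and 31 genes passed (29 lower, 2 higher), the 11 included, where 32.4% of all genes passed. With the replicate numbers as a block 33 genes passed (36.0% of all genes). Summed over the 77 genes, the level was 5389 ± 673 CPM in MC-F7 (4847 to 6142) and 4574 ± 307 CPM in MT-F7 (4264 to 4877), a ratio of 0.849. The groups overlapped, and an exact two-sided permutation test gave p = 0.2, where 3 libraries against 3 cannot go below 0.1. The sum over the small subunit did not overlap (1748 ± 196 against 1485 ± 87.6 CPM, exact permutation p = 0.1), and that over the large subunit did (ratio 0.849, exact permutation p = 0.2). Summed on TPM, the small subunit overlapped as well, with a ratio of 0.947 as deposited (exact permutation p = 0.7) and 0.915 after rescaling (exact permutation p = 0.4).

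Of the 5 mitochondrial ribosomal proteins with other names, 2 fell and the fold changes of all 5 were below 0 (median −0.29). DAP3, a GTP-binding protein of the small subunit, had 41.4, 38.8 and 39.5 CPM in MC-F7 and 25.3, 26.0 and 21.4 CPM in MT-F7 (fold change −0.72, SE 0.152, adjusted p = 0.0044). PTCD3, a pentatricopeptide repeat protein of the small subunit, had 104 ± 19.1 and 69.2 ± 3.08 CPM (fold change −0.59, SE 0.161, adjusted p = 0.019). Like MRPS27, which carries the same type of repeat, PTCD3 was highest in MC-F7 replicate 3 (125 CPM). AURKAIP1 (−0.29, adjusted p = 0.17), GADD45GIP1 (−0.15, adjusted p = 0.52) and CHCHD1 (−0.11, adjusted p = 0.74) did not pass. DAP3 passed with any 1 library left out, and PTCD3 in 2 of the 6 such fits.

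Genes of ribosome assembly, mitochondrial translation, mitochondrial DNA and nuclear regulation of mitochondria were taken as 4 further lists. With the 5 proteins above they made 5 mitochondrial lists and held 72 tested genes. Of these, 15 were lower (20.8%) and 0 were higher. Of all genes, 11.3% were lower and 11.9% higher, and 23.2% passed in either direction. The number higher was 0 also with DESeq2 and 1 with replicate numbers as a block. At an unadjusted p under 0.05, 25 of the 72 passed in either direction, 1 of them higher, with 35.8% of all genes as background. Among 24 tested genes of ribosome assembly and rRNA modification (median −0.16), MRM1, a methyltransferase of the large-subunit rRNA, fell from 49.5 ± 4.02 to 25.7 ± 2.82 CPM (fold change −0.95, SE 0.155, adjusted p = 8.2e-04). DDX28, a helicase of large-subunit assembly, had a fold change of −0.76 (adjusted p = 0.010). Among 19 genes of mitochondrial translation (median −0.26) 4 were lower: TACO1 (−0.76), an activator of the translation of a cytochrome c oxidase subunit, LRPPRC (−0.58), which stabilizes mitochondrial mRNAs, the release factor MTRF1L (−0.53) and TUFM (−0.51). TUFM, the elongation factor that brings aminoacyl-tRNA to the ribosome, fell from 314 ± 33.5 to 221 ± 8.82 CPM (adjusted p = 0.025). With 1 library left out, MRM1 passed in all 6 fits, DDX28 in 5, LRPPRC in 4, TACO1 and MTRF1L in 3 and TUFM in 2.

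Among 13 genes of mitochondrial DNA maintenance and transcription (median −0.33) 3 were lower. They were PNPT1 (−0.56), which processes RNA, the mitochondrial RNA polymerase POLRMT (−0.51, adjusted p = 0.037) and the replicative helicase TWNK (−0.44). TFAM, which packages mitochondrial DNA, was at 3.93 ± 0.624 and 2.80 ± 0.335 CPM without passing (−0.49, SE 0.256, adjusted p = 0.19). Among 11 transcriptional regulators of nuclear genes for mitochondria (median −0.25) 4 were lower: the coactivator PPARGC1B (−1.88, SE 0.419, adjusted p = 0.0060), MYCN (−1.08), YY1 (−0.72, adjusted p = 0.022) and ESRRA (−0.53, adjusted p = 0.033). MYCN, a transcription factor related to MYC, had 153, 149 and 173 CPM in MC-F7 and 80.8, 72.0 and 71.6 CPM in MT-F7 (SE 0.145, adjusted p = 1.9e-04). NRF1 (−0.086, adjusted p = 0.84), GABPA (0.13, adjusted p = 0.67) and MYC (−0.25, adjusted p = 0.46) did not pass. PPARGC1A, the paralog of PPARGC1B and named here after its values were seen, had 4, 5 and 13 reads in MC-F7 and 21, 26 and 20 reads in MT-F7. Its groups did not overlap, and its fold change of 1.44 (SE 0.542) had an adjusted p of 0.073. It passed in 1 of the 6 fits with 1 library left out. The adjusted p was 0.019 without replicate 3 of both groups, a comparison also chosen after the data had been seen. PPRC1 of the same list, also named after its values were seen, had a fold change of −0.49 (SE 0.178, adjusted p = 0.064). Its level was 87.7 ± 20.9 CPM in MC-F7 and 62.3 ± 5.63 CPM in MT-F7, without overlap. PPARGC1B and MYCN passed with any 1 library left out, PNPT1 and YY1 in 3 of the 6 such fits, and POLRMT, TWNK and ESRRA in 2.

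The 13 genes of the mitochondrial genome whose mRNAs the mitochondrial ribosome translates had a median fold change of −0.016. None of them passed (0 with edgeR, 0 at an unadjusted p under 0.05, and 1 with replicate numbers as a block or without MT-F7 replicate 2), and their standard errors had a median of 0.26. The part of the uneven share of mitochondrial reads between libraries in this was not tested. The mitochondrial ribosomal proteins were set beside the 2 gene groups most like them in size and kind. Of 75 tested cytosolic ribosomal proteins none passed (0 with edgeR, 5 at an unadjusted p under 0.05, 1 with DESeq2, 5 with replicate numbers as a block), with a median of −0.11 and 63 genes below 0, but the median was 0.034 (34 genes below 0) without MC-F7 replicate 1 and 0.015 with limma on deposited TPM. Of 78 nuclear-encoded subunits of the respiratory chain 5 were lower (6.41%), COX5A, UQCRH, UQCRB, NDUFV2 and NDUFB1. Of all tested genes, 11.3% were lower and 11.9% were higher. The median of the respiratory chain subunits was −0.098, which was −0.017 without MC-F7 replicate 1 and 0.033 with limma on deposited TPM. The 5 calls became 2, 1 and 11 without MC-F7 replicates 1, 2 and 3 (20.2%, 14.5% and 23.4% of all genes, in either direction). They became 3 without MT-F7 replicate 1 or 2 (16.3% and 16.9%), 14 with replicate numbers as a block (36.0%) and 0 with limma. On the deposited TPM, which are not scaled for depth, the limma median was −0.11 for the mitochondrial ribosomal proteins and 0.057 for all genes. The groups did not overlap for 4 of 75 and 10 of 78 genes, and for 29 of 76 mitochondrial ribosomal proteins, whose share of 38.2% was close to the 40.0% of all genes. MC-F7 replicate 1 was the highest library for 65 of 75 and 59 of 78 genes in these groups as well. Whether the 3 groups differed from each other was not tested.

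**Figure D5:**
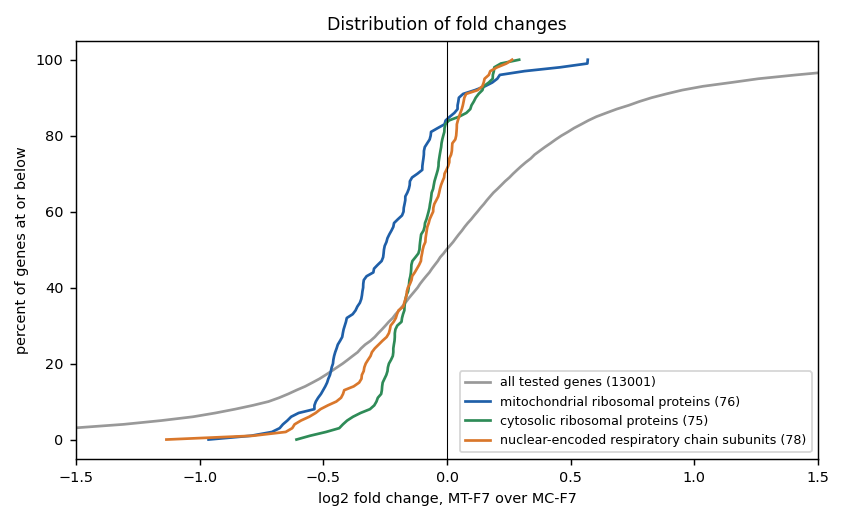
Percent of genes at or below each log2 fold change (MT-F7 over MC-F7) for all tested genes, mitochondrial ribosomal proteins, cytosolic ribosomal proteins and nuclear-encoded respiratory chain subunits. The curve of the mitochondrial ribosomal proteins (median −0.26) lies to the left of those of the other 2 groups over the middle of the range. The medians of these are −0.11 (cytosolic) and −0.098 (respiratory chain), and all 3 curves are steeper than that of all genes. With limma on deposited TPM, which are not scaled for depth, the 3 medians were −0.11, 0.015 and 0.033. The median of all genes was then 0.057.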

How the data were processed

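RNA-seq was done in 3 MC-F7 and 3 MT-F7 libraries. The authors filtered the reads, aligned them with HISAT2 2.0.5 and counted them on genes with featureCounts 1.5.0-p3 (versions per the submitters' processing notes), and deposited raw counts per Entrez gene. The genome build and the strand setting are not given in the sources used here, so reads of overlapping or antisense genes cannot be told apart. The authors also deposited TPM values, which summed to 155595 to 165666 per library and not to 1000000. For the 76 tested genes the ratio of TPM to counts was the same in all libraries within 1%. No table held per-sample columns of other samples.

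Entrez IDs were matched to symbols in RefSeq (ARS-UCD2.0, names only), with 19074 of 19163 matched. Sequences and positions of the genes were not used here. Counts were tested with edgeR 4.0.16 (R 4.3.3): filterByExpr (minimum count 10, minimum total 15), TMM factors, the quasi-likelihood test, two-sided, and Benjamini-Hochberg adjustment over 13001 genes, with a threshold of 0.05. The SE is the absolute log2 fold change divided by the square root of F. CPM is reads per 1000000, scaled by TMM. Alternatives were RLE factors, library size only, DESeq2 1.42.0, other count filters, leaving out mitochondrial genome genes or a library, the replicate number as a block, and limma 3.58.1 on log2(TPM + 1) as deposited and on TPM rescaled to 1000000 with 1 or 0.1 added. The edgeR script was tested on simulated data.

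Named are the genes that passed, the 5 with the highest and the 5 with the lowest TPM, up to 4 that did not overlap without passing, and genes listed for their roles. The rule for the members uses names only, but this gene family and the other lists were chosen for description with earlier results of these data known. The floor of 3 reads covers counting error only.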

Additional observations from a re-analysis of the deposited data

How the results depend on the processing

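The number of mitochondrial ribosomal proteins that passed was 11 with the RLE factors, library size only, both count filters and without mitochondrial genome genes. It was 15 of 77 with DESeq2, and the 11 genes of the main test passed each time. Of all genes, 1465 were lower and 1549 higher of 13001 with RLE factors, and 1610 and 1710 of 16223 with DESeq2. Limma called 1011 of 14737 genes lower and 1535 higher on rescaled TPM with 1 added, and 1025 and 1542 with 0.1 added. On TPM as deposited it called 843 of 12140 lower and 1643 higher. Of the mitochondrial ribosomal proteins, the number that passed with limma was 6 of 76 on rescaled TPM with either added constant. The number was 5 on TPM as deposited (5 each time in the large subunit, and 1, 1 and 0 in the small subunit). With 1 library left out it ranged from 4 (without MC-F7 replicate 2, where 14.5% of all genes passed) to 21 (without MC-F7 replicate 3, 23.4%), from 4 to 16 for the large subunit and from 0 to 5 for the small subunit. It was 6 without MC-F7 replicate 1 (20.2% of all genes) and 7 without MT-F7 replicate 1 (16.3% of all genes). DESeq2 called 5 small-subunit genes. The count over all genes ranged from 1914 to 3093 with 1 library left out. The 15 genes of the 5 mitochondrial lists became 4 to 17 with 1 library left out (4 without MC-F7 replicate 2 and 5 without MT-F7 replicate 1) and 5, 5 and 4 with limma. Without replicate 3 of both groups, 31 mitochondrial ribosomal proteins passed (22 large, 9 small), 23 genes of these lists and 4242 of all genes.

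Of 901 repeats over 53 named genes, 738 kept direction and side of the threshold, 133 lost a call, 17 gained one and 13 turned in direction, all 13 for genes that had not passed. Without MC-F7 replicate 1 the fold change became 0.15 for CHCHD1, 0.12 for MRPS18B, 0.012 for MRPS26 and 0.034 for MRPS35. It was 0.00245 for MRPS26 without MT-F7 replicate 1, and 0.057 and 0.0017 for MRPS35 without MT-F7 replicate 3 and without replicate 3 of both groups. With limma it was 0.017 on rescaled TPM with either constant and 0.061 on deposited TPM for CHCHD1, and on deposited TPM 0.043 for MRPS12, 0.019 for MRPS26 and 0.0086 for NRF1. With 1 library left out, the lowest values were −0.31 for CHCHD1, −0.35 for MRPS18B, −0.31 for MRPS26 and −0.35 for MRPS35. The causes were not tested. The median fold change of the 76 genes was below 0 under each alternative, from −0.30 to −0.11. The −0.11 was that of limma on deposited TPM, not scaled for depth, where the median of all genes was 0.057.

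With the replicate number as a block, 33 mitochondrial ribosomal proteins passed (30 lower and 3 higher, 23 large and 10 small, the 11 included). So did 24 genes of the 5 mitochondrial lists and 4674 of all genes (36.0%). The labels do not say that the numbers pair the samples. Deviations of same-numbered libraries correlated at 0.13, 0.044 and 0.42 for replicates 1, 2 and 3, and only the replicates 3 correlated best with their own number, so the unpaired test was kept.

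Without the block, no absolute log2 fold change under 0.47 was called among these genes with all 6 libraries in edgeR with TMM factors and the default filter. The tested genes had 52 to 7130 reads in each library. The standard error was widest for MRPS28, MRPS36 and MRPS18B (0.296 to 0.317), which had 52 to 174 reads in each library.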
